A study of Homo sapiens with 9 samples.

Results

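The EGR transcription factors EGR1, EGR2 and EGR3 and their co-repressors NAB1 and NAB2 were followed as transcripts in GIST-T1, a line of human gastrointestinal stromal tumour cells. These 5 genes were taken by symbol from a table of 23610 genes, and they were chosen by their FPKM values in these same libraries, because EGR1 lay above its control level with one sgRNA and below it with the other. Their differences are therefore given as descriptions, without p-values. PolyA RNA was sequenced in 9 libraries, 3 with an sgRNA against HAND1, 3 with an sgRNA against ETV1 and 3 with a control sgRNA against Luciferase, which has no counterpart in human cells. HAND1 is a basic helix-loop-helix factor of mesoderm development and ETV1 is an ETS factor of interstitial cells of Cajal and of this tumour. All libraries come from the single line, the labels call each sgRNA a knockdown, and they give no editing enzyme, time after delivery or separate culture for a library. The p-values of other genes thus rest on the spread among libraries that may be technical replicates.

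EGR proteins are zinc finger activators that bind a GC-rich site. Growth factor signals through RAS and ERK switch EGR1 on within minutes, by way of serum response factor (SRF) and its ETS partners at CArG boxes, and the transcript and protein are short-lived. EGR proteins in turn induce NAB2, which binds an inhibitory region of EGR1, EGR2 and EGR3 and recruits the NuRD chromatin remodelling complex, so that the pair forms a negative feedback loop. NAB1 binds the same region and is regarded as the more constant of the 2 co-repressors. In this tumour the receptor KIT is the usual source of ERK signalling.

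The sequence before the transcript start was searched for sites of these factors. RefSeq windows (GRCh38.p14) were at hand for 4 of the 5 genes. The 250 bases before each annotated start were searched on both strands for the CArG box and for the EGR site GCGNGGGCG. Also searched were the exact run CCGGAAGT, which is only one form of ETS site, and the CREB/ATF core ACGTCA. The last motif was CATCTG, an E-box of the kind HAND factors bind. The EGR1 window (chr5:138465229-138465478, plus strand) and the window at the third of 3 EGR2 starts (chr10:62816367-62816616, minus strand) are shown because they hold the CArG boxes. For NAB1 (chr2:190648846-190648874, plus strand) and NAB2 (chr12:57089042-57089070, plus strand) the stretch around the EGR site is shown. Capitals mark the matched bases, and each sequence runs 5′ to 3′.
EGR1: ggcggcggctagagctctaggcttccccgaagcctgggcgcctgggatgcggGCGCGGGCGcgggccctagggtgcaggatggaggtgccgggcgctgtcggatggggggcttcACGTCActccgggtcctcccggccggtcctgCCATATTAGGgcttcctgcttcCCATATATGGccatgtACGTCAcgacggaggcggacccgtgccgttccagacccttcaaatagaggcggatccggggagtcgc
EGR2: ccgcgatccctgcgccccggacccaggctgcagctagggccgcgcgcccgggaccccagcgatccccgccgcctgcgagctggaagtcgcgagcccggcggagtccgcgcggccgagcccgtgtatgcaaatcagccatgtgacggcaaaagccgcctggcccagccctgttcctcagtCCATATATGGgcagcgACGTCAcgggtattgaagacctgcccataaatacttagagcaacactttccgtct
NAB1: cagcggcCGCCCCCGCCCCCGCccggcgg
NAB2: tgtgcgtcctGCGGGGGCGgaggcgcgga

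EGR1 held 2 CArG boxes, at -105 to -96 and at -83 to -74 from its start, where -1 is the last base before the start. Of 35116 windows in RefSeq, 1.16% held a CArG box and 0.0313%, or 11 windows, held at least 2. The EGR1 window also held ACGTCA at 2 places, -136 to -131 and -67 to -62, and 1 EGR site at -198 to -190. EGR2 held 1 CArG box, at -71 to -62, with ACGTCA at -55 to -50. The other 2 EGR2 windows held none of the 5 motifs.

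NAB2 held 1 EGR site, at -62 to -54, and no CArG box. NAB1 held 2 EGR sites at its first start, at -42 to -34 and -36 to -28, which overlap each other and lie on the minus strand. Its second window overlaps the first and holds the same pair again, at -230 to -222 and -224 to -216, with 1 further EGR site at -175 to -167, so that NAB1 had 3 distinct EGR sites. In another annotation, GENCODE 29, 220 of the 250 bases of the NAB2 window lie in NAB2 exons, as do 90 and 99 bases of NAB1 windows 2 and 3 in NAB1 exons, so part of these windows may be transcribed. Windows with an EGR site made up 8.41% of all windows, those with ACGTCA 7.10%, those with CATCTG 12.2% and those with CCGGAAGT 3.42%. CCGGAAGT was found in none of the 8 windows of the 4 genes, and CATCTG in 1, the third NAB1 window. Only the exact run CCGGAAGT was searched, so these windows may hold ETS sites of other sequence. Apart from this NAB1 pair, no match overlapped another. A match is a run of letters and not a measured binding site.

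**Figure D1:**
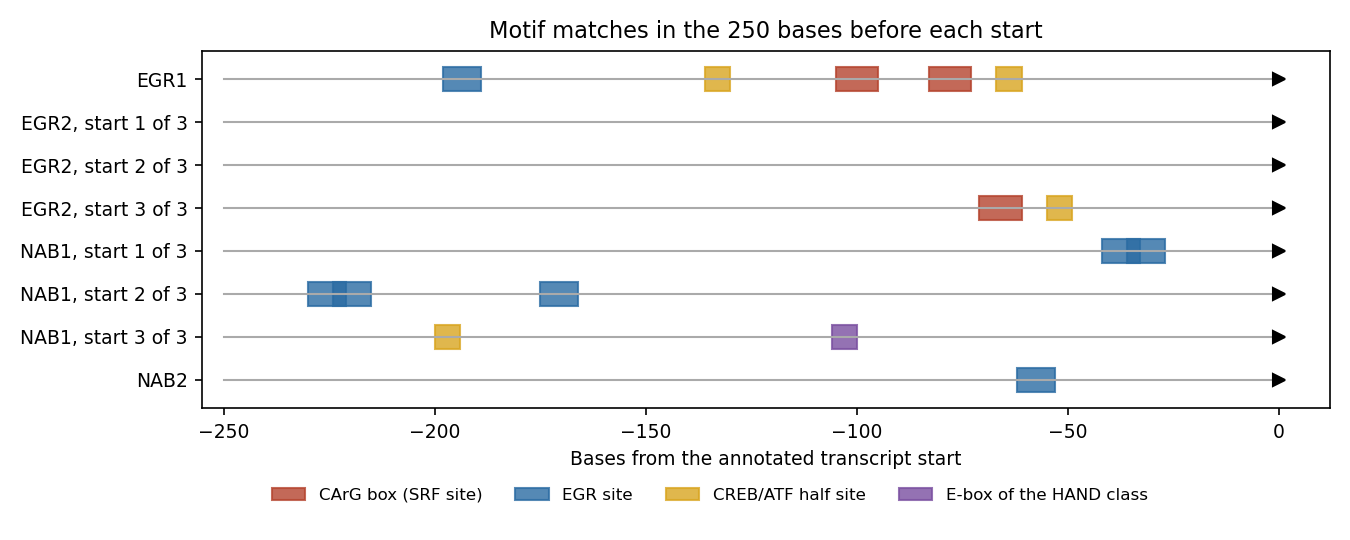
Motif matches in the 250 bases before each annotated start of EGR1, EGR2, NAB1 and NAB2; the horizontal axis is the distance in bases from the start, which the arrowhead marks, and each coloured box is a match. The 2 CArG boxes of EGR1 and the single one of EGR2 lie within 105 bases of the start, whereas no NAB window holds a CArG box and the first 2 NAB1 windows and the NAB2 window hold EGR sites.

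Set against Luciferase sgRNA replicate 1, the other libraries had 0.636 to 0.952 of its depth, and 11283 to 11345 genes reached 1 FPKM (a fragment count divided by transcript length and by library size) in a library. Luciferase sgRNA replicate 3 stood apart, with 12.2% of its summed FPKM in ribosomal protein genes against 8.51% to 9.63% in the other libraries, so results are also given without it. Replicate libraries shared identical non-zero values in only 1 to 5 genes per pair. The transcript of each targeted gene was lower with its own sgRNA: HAND1 was at 38.3 ± 2.25 FPKM in HAND1 sgRNA libraries against 114 ± 1.121 in Luciferase sgRNA libraries, and ETV1 at 11.4 ± 0.571 FPKM in ETV1 sgRNA libraries against 39.7 ± 2.42 (SD, n = 3 each). KIT, ANO1, CD34 and the other 5 markers of this tumour all had a mean above 1 FPKM, while 5 of 6 blood and endothelial markers and 6 of 6 glial and neuronal markers were below 1 FPKM. Of 5 epithelial markers 3 were below 1 FPKM; the exceptions were KRT18, at a mean of 225 FPKM, and KRT8, at 3.27 FPKM. The summed blood and endothelial markers, nearly all CD68, came to 5.60 to 7.46 FPKM with HAND1 sgRNA, 4.69 to 5.97 FPKM with ETV1 sgRNA and 3.92 to 5.03 FPKM with Luciferase sgRNA, and the summed epithelial markers to 204 to 220.3, 222 to 246 and 227 to 265 FPKM in that order; their part in the results was not tested. KIT itself averaged 159.9 FPKM with HAND1 sgRNA, 207 FPKM with ETV1 sgRNA and 209 FPKM with Luciferase sgRNA.

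EGR1 was the most abundant EGR transcript in these cells, and its level was different in each group. It was at 21.6, 21.1 and 27.9 FPKM in HAND1 sgRNA replicates 1, 2 and 3. In ETV1 sgRNA libraries it was at 193, 191 and 221 FPKM, and in Luciferase sgRNA libraries at 65.1, 68.7 and 68.1 FPKM. The 3 groups did not overlap, with the control between the groups of the 2 sgRNAs. The means were 23.5 ± 3.79 FPKM with HAND1 sgRNA, 202 ± 16.9 FPKM with ETV1 sgRNA and 67.3 ± 1.94 FPKM with Luciferase sgRNA (SD, n = 3 each).

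On the scale log2(FPKM + 1), EGR1 was at -1.49 (SE 0.099) with HAND1 sgRNA and at 1.57 (SE 0.099) with ETV1 sgRNA, each relative to Luciferase sgRNA. As a ratio of means, EGR1 was 2.86-fold lower with HAND1 sgRNA and 3.00-fold higher with ETV1 sgRNA. Without Luciferase sgRNA replicate 3 the differences were -1.48 and 1.58. Directly between the sgRNAs, HAND1 minus ETV1, the log2 difference was -3.05 (SE 0.099), an 8.57-fold lower mean with HAND1 sgRNA. The 2 differences from the control share the same 3 control libraries.

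By rank of the mean among the 23610 genes, EGR1 stood at place 3820 with HAND1 sgRNA, at place 353 with ETV1 sgRNA and at place 1403 with Luciferase sgRNA. Its replicates spread unequally. The SD was 16.1% of the mean with HAND1 sgRNA, 8.36% with ETV1 sgRNA and 2.89% with Luciferase sgRNA, where tested genes within 1.5-fold of its level had a median of 5.40%, 4.10% and 5.84% in the same order of groups. Among the 11348 genes tested, EGR1 was the single gene called in opposite directions with the 2 sgRNAs (0.00881%), which is the pattern it was picked for.

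EGR2 and EGR3, which share the zinc fingers and the NAB-binding region of EGR1, were near the bottom of the measured range. EGR2 was at 0.187, 0.248 and 0.161 FPKM in HAND1 sgRNA libraries, at 0.206, 0.386 and 0.264 FPKM in ETV1 sgRNA libraries and at 0.338, 0.193 and 0.499 FPKM in Luciferase sgRNA libraries. EGR3 was at 0.200, 0.0264 and 0.411 FPKM in HAND1 sgRNA libraries, at 0.398, 0.248 and 0.524 FPKM in ETV1 sgRNA libraries and at 0.429, 0.317 and 0.252 FPKM in Luciferase sgRNA libraries. The means of EGR2 were 0.199 ± 0.0446 FPKM with HAND1 sgRNA, 0.285 ± 0.0918 FPKM with ETV1 sgRNA and 0.343 ± 0.153 FPKM with Luciferase sgRNA, and those of EGR3 were 0.212 ± 0.193, 0.390 ± 0.139 and 0.333 ± 0.0898 FPKM in that order (SD, n = 3 each). For both genes the 3 groups overlapped in every pairing, and neither reached the mean of 1 FPKM that the test required. No difference of EGR2 or EGR3 could be seen at this level, which is not evidence that there is none.

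EGR1 therefore made up nearly all of the summed EGR level, and FPKM is a scale per transcript length on which genes can be compared. Its share of the EGR1, EGR2 and EGR3 sum was 98.3% ± 0.368 with HAND1 sgRNA, 99.7% ± 0.0213 with ETV1 sgRNA and 99.0% ± 0.228 with Luciferase sgRNA (SD, n = 3 each). EGR4, the remaining EGR gene and not one of the 5, was listed at 0 in all HAND1 sgRNA and Luciferase sgRNA libraries. In the 3 ETV1 sgRNA libraries it was listed at 0.106, 0.0684 and 0.0567 FPKM, values too low for a fold change.

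NAB2, the inducible co-repressor, was higher with both sgRNAs. It was at 17.2, 15.0 and 15.3 FPKM in HAND1 sgRNA libraries and at 16.6, 15.4 and 15.8 FPKM in ETV1 sgRNA libraries, against 9.23, 9.69 and 11.05 FPKM in Luciferase sgRNA libraries. All 6 libraries with a targeting sgRNA lay above all 3 controls, and the 2 targeting groups overlapped each other. The means were 15.8 ± 1.22 FPKM with HAND1 sgRNA, 15.96 ± 0.595 FPKM with ETV1 sgRNA and 9.99 ± 0.946 FPKM with Luciferase sgRNA (SD, n = 3 each).

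The log2 difference of NAB2 from the control was 0.62 (SE 0.079) with HAND1 sgRNA and 0.63 (SE 0.079) with ETV1 sgRNA, ratios of means of 1.58 and 1.60. Without Luciferase sgRNA replicate 3, the highest of the controls, the differences were 0.68 and 0.70. Between the sgRNAs, HAND1 minus ETV1, it was -0.01 (SE 0.079). NAB2 thus stood at nearly one level with HAND1 sgRNA and with ETV1 sgRNA, where EGR1 stood 8.57-fold lower with HAND1 sgRNA.

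NAB1 was the steadiest of the 3 genes that could be fitted. It was at 14.1, 13.9 and 15.8 FPKM in HAND1 sgRNA libraries, at 14.6, 14.4 and 13.4 FPKM in ETV1 sgRNA libraries and at 14.5, 13.8 and 13.3 FPKM in Luciferase sgRNA libraries. The groups overlapped in every pairing. Its log2 differences from the control were 0.07 with HAND1 sgRNA and 0.02 with ETV1 sgRNA (SE 0.069 each), both within about one SE.

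**Figure D2:**
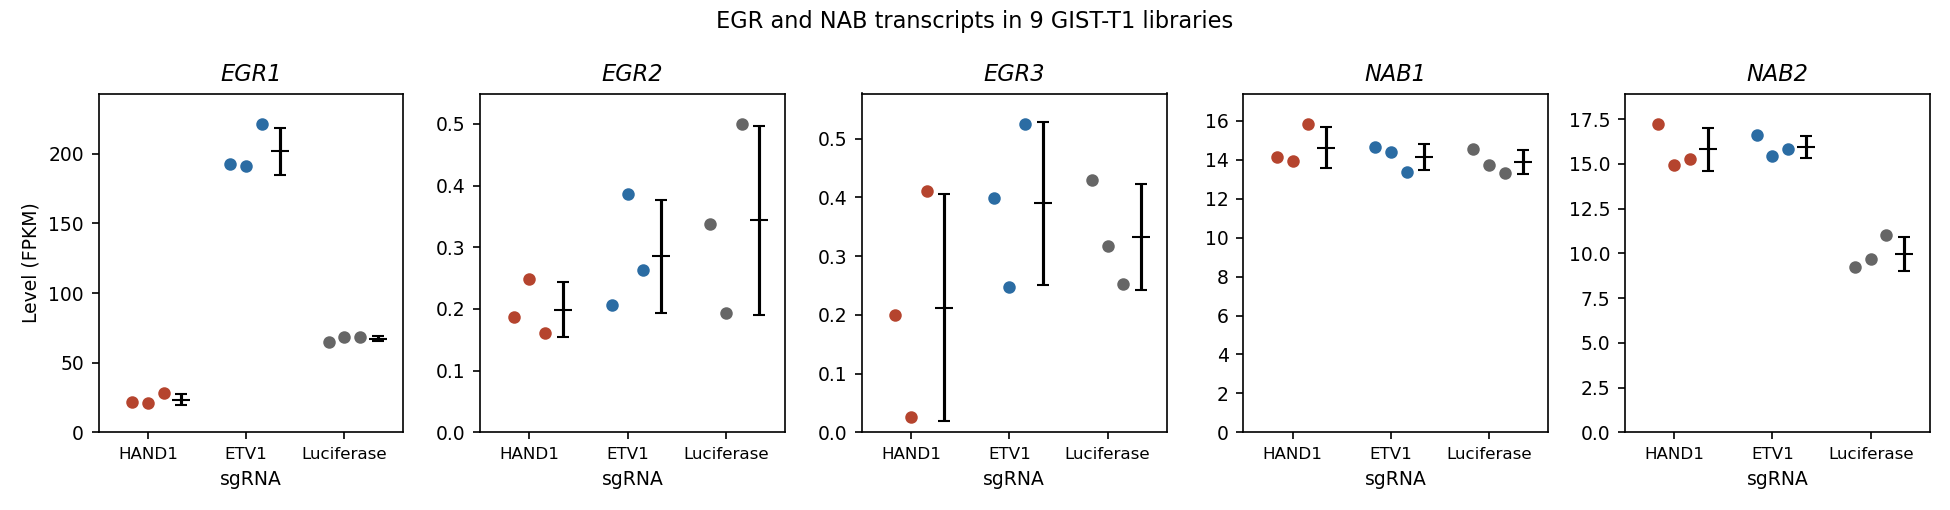
Level in FPKM (vertical axis, starting at 0 and scaled for each gene) of EGR1, EGR2, EGR3, NAB1 and NAB2 in 9 libraries by sgRNA; points are replicates 1 to 3 from left to right and bars give mean ± SD. EGR1 separates all 3 groups, NAB2 separates both targeting sgRNAs from Luciferase sgRNA, and the groups of the other 3 genes overlap.

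In order of level, EGR1 was the highest of the 5 genes in each group, NAB1 and NAB2 followed, and EGR2 and EGR3 came last. With HAND1 sgRNA NAB1 and NAB2 did not differ beyond their spread, and with ETV1 sgRNA NAB2 lay above NAB1 in all 3 libraries. With Luciferase sgRNA NAB1 (13.9 ± 0.614 FPKM) lay above NAB2 (9.99 ± 0.946 FPKM) in all 3 libraries. Within a library the ratio of NAB2 to NAB1 was 0.965 to 1.22 with HAND1 sgRNA, 1.07 to 1.18 with ETV1 sgRNA and 0.634 to 0.828 with Luciferase sgRNA.

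The ratio of activator to co-repressor transcripts was lowest with HAND1 sgRNA and highest with ETV1 sgRNA. EGR1 over NAB2 was 1.25, 1.41 and 1.83 in HAND1 sgRNA libraries, 11.6, 12.4 and 14.0 in ETV1 sgRNA libraries and 7.05, 7.09 and 6.17 in Luciferase sgRNA libraries. The 3 groups did not overlap, but EGR1 was picked for this order of groups, so the ratios largely restate it. Against the sum of both co-repressors, EGR1 stood at a ratio of 0.772 ± 0.110 with HAND1 sgRNA, below the co-repressors, and at 6.72 ± 0.755 with ETV1 sgRNA and 2.82 ± 0.0988 with Luciferase sgRNA (SD, n = 3 each). The summed co-repressor level itself was 30.4 ± 1.35 FPKM with HAND1 sgRNA, 30.1 ± 1.05 FPKM with ETV1 sgRNA and 23.9 ± 0.478 FPKM with Luciferase sgRNA.

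**Figure D3:**
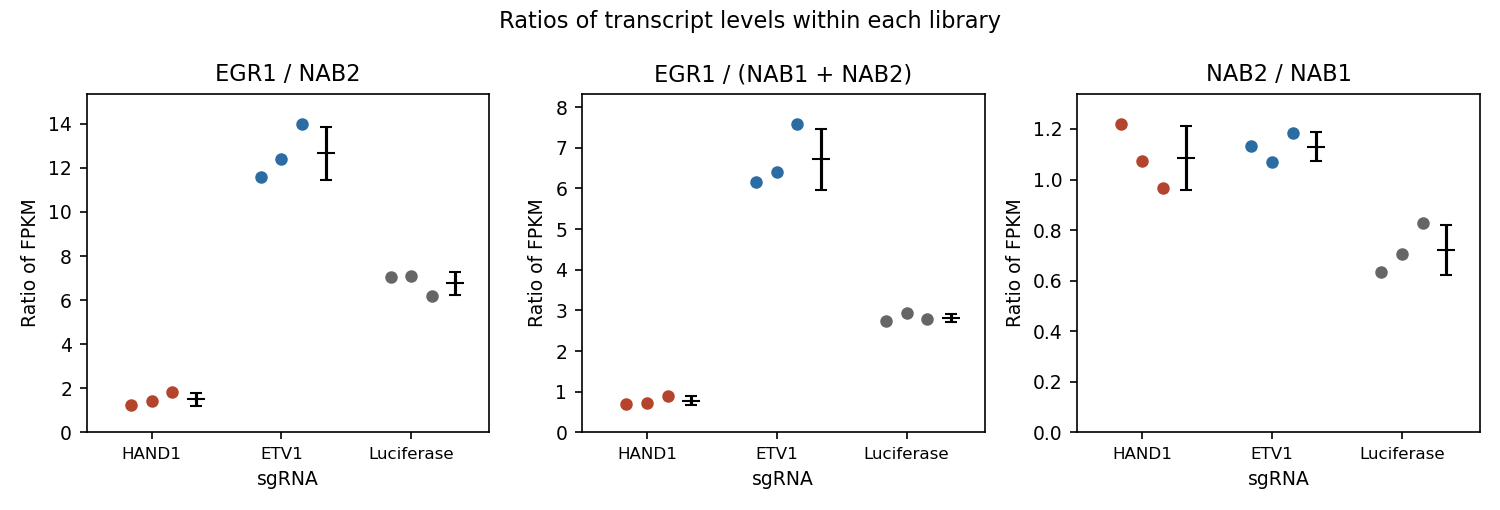
Ratios of FPKM within each library (vertical axes, starting at 0) of EGR1 to NAB2, of EGR1 to the sum of NAB1 and NAB2, and of NAB2 to NAB1, by sgRNA; points are replicates and bars give mean ± SD. EGR1 to NAB2 lies at 1.25 to 1.83 with HAND1 sgRNA, 11.6 to 14.0 with ETV1 sgRNA and 6.17 to 7.09 with Luciferase sgRNA.

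By limma with Benjamini-Hochberg adjustment over all 11348 genes tested, 2 of the 5 genes, EGR1 and NAB2, had an adjusted p under 0.05 with HAND1 sgRNA against Luciferase sgRNA, where 6.60% of all tested genes did. With ETV1 sgRNA against Luciferase sgRNA it was the same 2, where 0.203% did, and with HAND1 sgRNA against ETV1 sgRNA it was EGR1, where 4.05% did. Since these comparisons chose the genes, the counts are a description. With ETV1 sgRNA the count was 1, EGR1, without ETV1 sgRNA replicate 1 or 3 and without Luciferase sgRNA replicate 1 or 2. The 3 values of EGR1 and of NAB2 did not overlap the 3 control values with either sgRNA, which held for 25.7% of tested genes with HAND1 sgRNA and 12.9% with ETV1 sgRNA. Between HAND1 and ETV1 sgRNA the values of EGR1 did not overlap, as for 22.4% of tested genes.

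Neighbouring genes were read because the libraries do not keep the strand. NAB2 overlaps STAT6 in RefSeq, and reads from such an overlap cannot be told apart. STAT6, a cytokine-activated transcription factor, was at 0.0783 to 0.110 FPKM in HAND1 sgRNA libraries, 0 to 0.207 FPKM in ETV1 sgRNA libraries and 0.0330 to 0.0790 FPKM in Luciferase sgRNA libraries, far under NAB2. The STAT6 values rest on the same assignment of reads, so they do not show how much of the NAB2 level comes from the overlap. The nearest coding genes on either side of NAB2, LRP1 and NEMP1 (listed as TMEM194A), were not called with HAND1 sgRNA (log2 0.20 and 0.05, limma adjusted p = 0.338 and 0.630) or with ETV1 sgRNA (0.01 and 0.06, adjusted p = 0.996 and 0.817). Beside EGR1, ETF1, a translation termination factor, was not called either (-0.11 with HAND1 sgRNA, adjusted p = 0.226, and -0.02 with ETV1 sgRNA, adjusted p = 0.970), and REEP2 had a mean below 1 FPKM in each group. BIN3 beside EGR3 (adjusted p = 0.0668 with HAND1 sgRNA and 0.548 with ETV1 sgRNA) was not called either.

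The genes most like EGR1 were sought by Pearson's r of log2(FPKM + 1) over the 9 libraries, among 1806 tested genes whose group means spanned at least 0.3. The points share libraries and fall into 3 groups, so r describes the order and spacing of the groups and has no p. Those with a high r included KCTD9 (r = 0.976), KCTD12, an auxiliary subunit of GABA-B receptors (0.973), JUNB, a JUN family immediate early factor (0.972), and IER2, an immediate early protein (0.969). JUNB averaged 12.2 ± 0.570 FPKM with HAND1 sgRNA, 28.2 ± 3.71 FPKM with ETV1 sgRNA and 19.7 ± 1.202 FPKM with Luciferase sgRNA. IER2 averaged 43.5 ± 3.15, 111 ± 10.01 and 77.6 ± 13.2 FPKM in that order, and KCTD12 averaged 99.9 ± 2.05, 179 ± 5.69 and 148 ± 2.67 FPKM (SD, n = 3 each). KCTD9 spanned much less, with 8.20 ± 0.382 FPKM with HAND1 sgRNA, 10.9 ± 0.310 FPKM with ETV1 sgRNA and 9.57 ± 0.258 FPKM with Luciferase sgRNA.

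The genes most like NAB2 by the same measure were DKK2, a secreted WNT antagonist (r = 0.967), TNFSF13, a TNF family ligand (0.962), ZFP36L2, an RNA-binding decay factor (0.929), JUN (0.925) and WISP1, a CCN family protein (0.924). ZFP36L2 averaged 66.1 ± 3.42 FPKM with HAND1 sgRNA, 64.7 ± 2.38 FPKM with ETV1 sgRNA and 46.7 ± 1.36 FPKM with Luciferase sgRNA. DKK2 averaged 24.5 ± 1.14, 25.2 ± 0.661 and 19.2 ± 0.858 FPKM in that order (SD, n = 3 each). In these 5 genes, as in NAB2, the 2 targeting groups lay near each other and above the control, which is the pattern they were picked for.

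**Figure D4:**
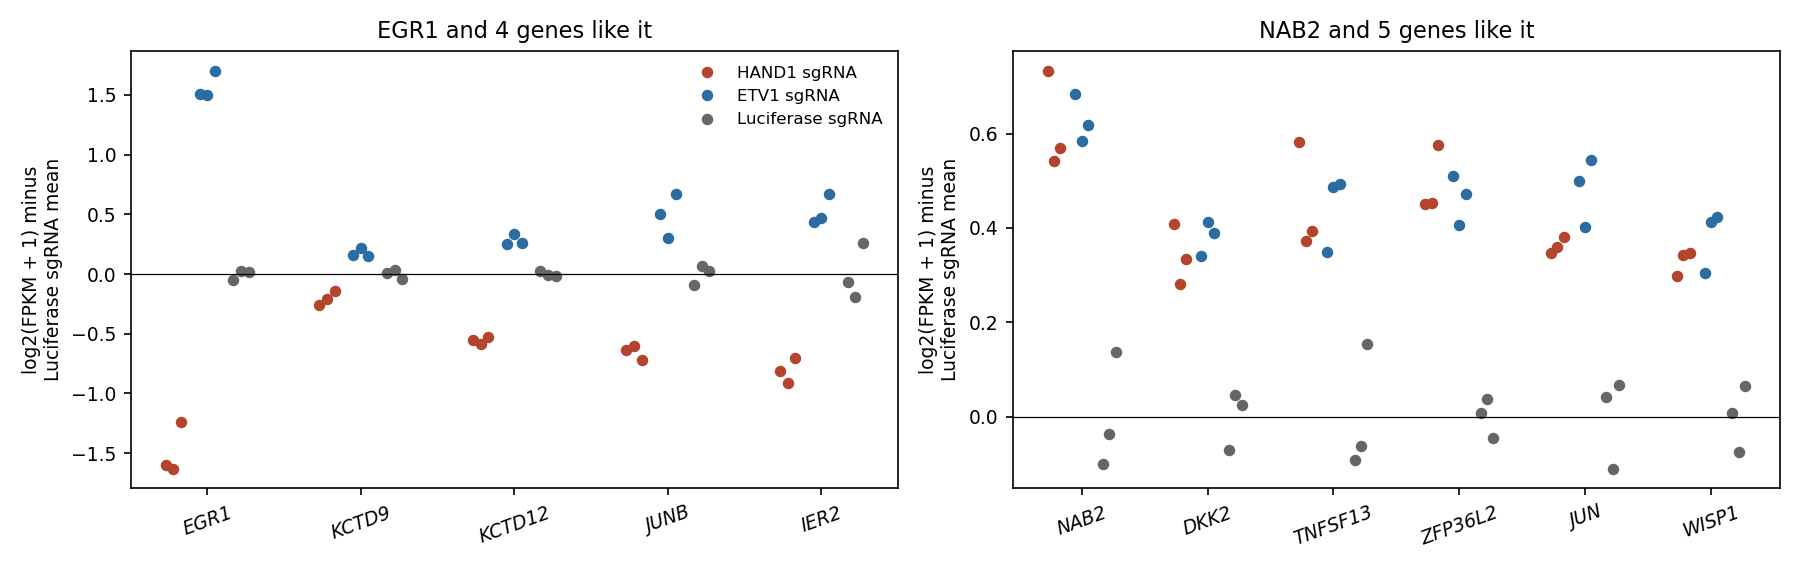
Level of EGR1 and of NAB2, with 4 genes like EGR1 and the 5 most like NAB2, as log2(FPKM + 1) minus the mean of the 3 Luciferase sgRNA libraries (vertical axis); each point is a library. EGR1 has the widest span of its set, with a difference of -3.05 between HAND1 and ETV1 sgRNA, and KCTD9 keeps the order of groups over a far smaller span.

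Lists of other genes of the pathway were read in the same fit. Their union held 117 tested genes beside the 5. The lists were chosen with earlier results of these data known. Shares above those of all tested genes, here and in each list below, are therefore descriptions and no test of the lists. With HAND1 sgRNA against Luciferase sgRNA 26 of them were called (22.2%, against 6.60% of all tested genes), 14 higher and 12 lower, where 3.67% of all tested genes were higher and 2.93% lower. With ETV1 sgRNA 5 were called (4.27%, against 0.203%), 3 higher and 2 lower, where 0.141% of all tested genes were higher and 0.0617% lower.

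Genes upstream of EGR1 were read beside the share of all tested genes called, 6.60% with HAND1 sgRNA and 0.203% with ETV1 sgRNA. Of 10 inducers (SRF, its ETS partners ELK1, ELK3 and ELK4, its co-activators and the CREB factors) limma called 0 with either sgRNA, with 1 at an unadjusted p under 0.05 with HAND1 sgRNA and 0 with ETV1 sgRNA. SRF averaged 15.0 ± 0.478 FPKM with ETV1 sgRNA against 15.5 ± 1.36 FPKM with Luciferase sgRNA. ELK4 had a log2 difference of -0.16 with HAND1 sgRNA (adjusted p = 0.204). Of 18 members of the RAS to ERK cascade 2 fell with HAND1 sgRNA (11.1% called). In the same comparison 5 of the 18 had an unadjusted p under 0.05, as had 2302 of the 11348 genes tested. MAPK3, the kinase ERK1, was at 55.7 ± 2.52 FPKM against 73.2 ± 1.65 FPKM (log2 -0.39, limma adjusted p = 0.00120), and RPS6KA3, the ERK-activated kinase RSK2, at 20.3 ± 0.823 FPKM against 28.98 ± 1.25 FPKM (-0.49, adjusted p = 6.77e-04). With ETV1 sgRNA 0 of the 18 were called and 1 had an unadjusted p under 0.05. At the shares of all tested genes, counts of 0 among 10 or 18 genes do not set these lists apart.

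Partners of EGR and NAB proteins were read as a list of 18 NuRD subunits and co-regulators. With HAND1 sgRNA 2 of them rose and 0 fell (11.1% called, against 6.60% of all tested genes). An unadjusted p under 0.05 was found for 5 of the 18, as for 2302 of the 11348 genes tested. The 2 that rose were CITED1, a CBP/p300-binding co-regulator, at 8.50 ± 0.819 FPKM against 5.01 ± 0.718 FPKM (log2 0.66, limma adjusted p = 0.00785), and MBD3, a NuRD subunit (0.21, adjusted p = 0.0302). The call of MBD3 was lost without HAND1 sgRNA replicate 1, 2 or 3 (adjusted p = 0.0814, 0.0710 and 0.121) or Luciferase sgRNA replicate 2 (0.112), and with no intensity trend, only 2 groups or a replicate block (0.0607, 0.0645 and 0.0547). With ETV1 sgRNA 0 of 18 were called, where 0.203% of all tested genes were. An unadjusted p under 0.05 was found for 3, among them CITED1 (0.46, adjusted p = 0.271) and CITED2 (0.31, adjusted p = 0.180). CHD4, the NuRD ATPase that NAB2 recruits, was called with neither sgRNA. Of 7 tested factors that bind GC-rich sites like those of EGR proteins, limma called 0 with either sgRNA and 1 with each had an unadjusted p under 0.05, SP3 with HAND1 sgRNA (0.19, adjusted p = 0.168) and KLF2 with ETV1 sgRNA (0.31, adjusted p = 0.502). At the shares of all tested genes, these counts of 0 among 18 or 7 genes do not set either list apart. WT1, whose protein shares the EGR site, had a mean below 1 FPKM.

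Of 40 described EGR targets, compiled from other cell types, 31 were tested. With ETV1 sgRNA, where EGR1 was 3.00-fold higher, limma called 0 of 31, where it called 0.203% of all tested genes, so that a count of 0 does not set the targets apart; 3 had an unadjusted p under 0.05, and the median log2 difference was 0.03, beside -0.01 over all tested genes. The smallest adjusted p values were those of PDGFA, a growth factor, at 1.42 ± 0.144 FPKM against 2.40 ± 0.361 FPKM (log2 -0.49, adjusted p = 0.408), and NGFR, a neurotrophin receptor, at 1.59 ± 0.112 FPKM against 1.01 ± 0.258 FPKM (0.37, adjusted p = 0.528).

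With HAND1 sgRNA, where EGR1 was 2.86-fold lower, 6 of the 31 targets rose, 2 fell and 23 were not called (25.8% called, against 6.60% of all tested genes), with a median log2 difference of 0.04 beside -0.01 over all tested genes. THBS1, the matrix protein thrombospondin, was at 158 ± 3.79 FPKM against 83.3 ± 5.79 FPKM (0.91, limma adjusted p = 1.81e-05). EGFR, a receptor tyrosine kinase, rose by 0.45 (adjusted p = 0.00599) and F3, the initiator of coagulation, by 0.57 (adjusted p = 0.00786). Among those that fell was FLT4, a VEGF receptor named after its value was seen (-0.36, adjusted p = 0.0413), and its call was lost without ETV1 sgRNA replicate 3 (0.0566), any of the HAND1 sgRNA libraries (replicates 1 to 3: 0.0739, 0.118 and 0.134) or one of the Luciferase sgRNA libraries (0.0545, 0.133 and 0.0901), with no filter (0.0771), with median centring (0.0556) and with a replicate block (0.0744). Without Luciferase sgRNA replicate 3 the counts were 5 higher and 1 lower.

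Other immediate early genes, some of which answer the same signals as EGR1, divided. With HAND1 sgRNA 33.3% of 24 were called, against 6.60% of all tested genes. Of the 24, 2 fell, JUNB (log2 -0.65, limma adjusted p = 0.00188) and IER2 (-0.81, adjusted p = 0.00181), and 6 rose. Among these CTGF, a matricellular protein, rose by 1.21 (adjusted p = 2.12e-04) and SGK1, a serum-induced kinase, by 0.67 (adjusted p = 2.58e-04). With ETV1 sgRNA 2 of 24 rose and 0 fell (8.33% called, against 0.203% of all tested genes). FOS, the AP-1 partner of JUN proteins, was at 12.7, 12.6 and 14.8 FPKM in ETV1 sgRNA libraries against 1.65, 2.38 and 2.50 FPKM in Luciferase sgRNA libraries (2.19, adjusted p = 2.07e-05). JUN rose by 0.48 (adjusted p = 0.0209), and its call was lost without ETV1 sgRNA replicate 1 or 3 (0.114 and 0.135), any of the HAND1 sgRNA libraries (0.0506 to 0.0571) or Luciferase sgRNA replicate 1 or 2 (0.0677 and 0.0959), and with only 2 groups (0.121). JUNB and IER2 had log2 differences of 0.49 and 0.52 with ETV1 sgRNA and were not called (adjusted p = 0.0825 and 0.180).

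With HAND1 sgRNA FOS was at 1.61, 1.78 and 1.80 FPKM in HAND1 sgRNA libraries, a range that overlaps the controls, while EGR1 in those libraries lay below every control.

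Of 15 ERK feedback inhibitors and outputs 6 fell with HAND1 sgRNA, 0 rose and 9 were not called (median log2 -0.12, beside -0.01 over all tested genes). The share called was 40%, against 6.60% of all tested genes. Members that were not called lay on both sides of the control, such as LIF at 0.27 (limma adjusted p = 0.128) and DUSP4 at -0.22 (adjusted p = 0.265). Of the 6, DUSP5, named after its value was seen (-0.38, adjusted p = 0.0273), was not called without HAND1 sgRNA replicate 1 or 2 (0.0924 and 0.0753), without Luciferase sgRNA replicate 1, 2 or 3 (0.0595, 0.0617 and 0.0717) or with no filter (0.0523), and the count without Luciferase sgRNA replicate 3 was 5. DUSP6, the ERK phosphatase, was at 76.7, 75.2 and 80.3 FPKM in HAND1 sgRNA libraries against 181, 185 and 177 FPKM in Luciferase sgRNA libraries (-1.22, limma adjusted p = 7.78e-07). SPRY4, an inhibitor of receptor signalling, fell by 0.75 (adjusted p = 1.30e-05), PHLDA1 by 0.53 (adjusted p = 1.58e-04) and ETV5, an ETS factor, by 0.30 (adjusted p = 0.00540). With ETV1 sgRNA, where EGR1 was higher, DUSP6 was also lower, at 122, 122 and 130 FPKM (-0.53, adjusted p = 0.00136), and so was SPRY4 (-0.41, adjusted p = 0.00489), though the SPRY4 call was lost with quantile normalization (0.166) and with only 2 groups (0.0545). SPRY1 rose with ETV1 sgRNA (0.40, adjusted p = 0.0257), but the call was lost without any one of the ETV1 sgRNA libraries (0.0569 to 0.150), any one of the HAND1 sgRNA libraries (0.0506 to 0.0571) or Luciferase sgRNA replicate 1 (0.102), and with no intensity trend (0.0799), only 2 groups (0.121) or a replicate block (0.129).

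**Figure D5:**
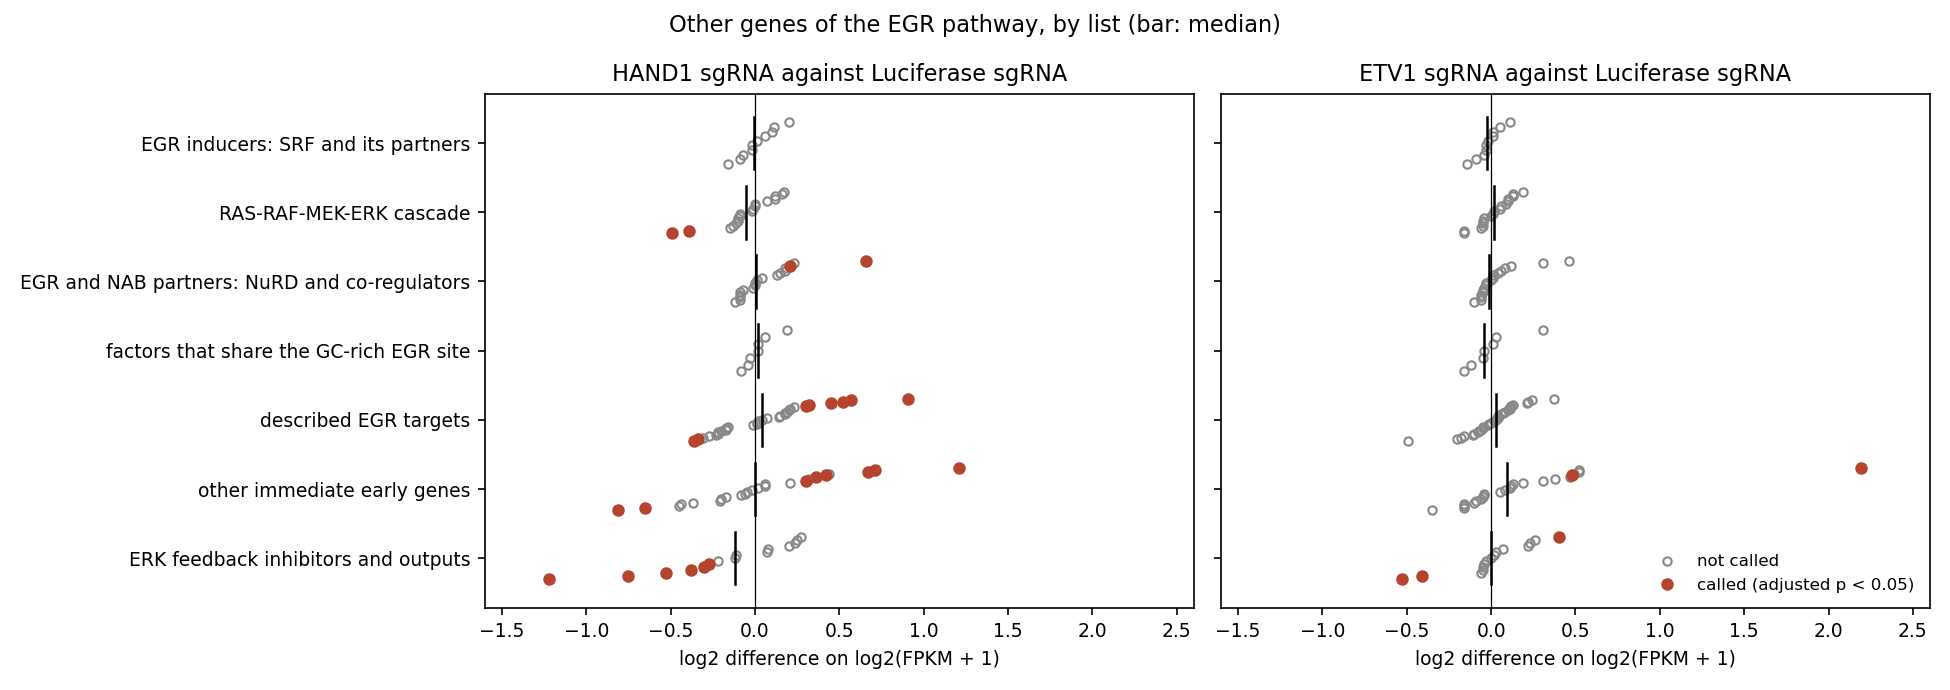
Differences on log2(FPKM + 1) of the tested genes in the lists of the EGR pathway (rows) with HAND1 sgRNA (left) and ETV1 sgRNA (right) against Luciferase sgRNA; each point is a gene, filled where limma called it, and the vertical bar in each row is the list's median. The 31 described EGR targets have 8 filled points on the left and 0 on the right, and FOS is the filled point at 2.19 on the right.

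Directly between the sgRNAs, HAND1 against ETV1, 18 of the 117 list genes were called (15.4%, against 4.05% of all tested genes), 7 higher and 11 lower, where 2.01% of all tested genes were higher and 2.04% lower. The share describes lists that were chosen with earlier results of these data known. Of 24 immediate early genes 3 were higher with HAND1 sgRNA and 4 lower (29.2% called, against 4.05% of all tested genes). The 3 were SGK1 (log2 0.62, limma adjusted p = 5.86e-04), CTGF (0.68, adjusted p = 0.00927) and BTG2, named after its value was seen (0.35, adjusted p = 0.00342). Among those that were lower FOS fell by 2.40 (log2, limma adjusted p = 2.80e-06), IER2 by 1.33 (adjusted p = 1.06e-04) and JUNB by 1.14 (adjusted p = 6.46e-05). The fourth that fell, DUSP1, named after its value was seen (-0.56, adjusted p = 0.0281), was not called without ETV1 sgRNA replicate 1 or 3 (0.102 and 0.101) or HAND1 sgRNA replicate 1 or 2 (0.110 and 0.0991), or with no filter (0.0668). Of 31 described EGR targets 4 were higher with HAND1 sgRNA and 0 lower, among them THBS1 at 158 ± 3.79 FPKM against 90.9 ± 3.99 FPKM with ETV1 sgRNA (0.79, adjusted p = 5.26e-05), GDF15, a stress-induced cytokine (0.59, adjusted p = 0.00857), and F3 (0.59, adjusted p = 0.00932). Without Luciferase sgRNA replicate 3 in the shared fit the counts were 5 higher and 1 lower. EGR1 was 8.57-fold lower in the same HAND1 sgRNA libraries.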

How the data were processed

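RNA of 9 GIST-T1 libraries (RNeasy Plus) became non-stranded NEBNext Ultra II libraries, read on a NovaSeq6000, per the labels' protocols. Per the submitters' processing notes the tools were STAR and Cufflinks, versions unstated, and the build hg19. The annotation and the scaling across libraries have no source here. The authors deposited FPKM per gene symbol and library, not read counts, so absolute depth is unknown. Relative depth was read from the most frequent log2 ratio of genes of low FPKM. Values below 1e-06 were read as 0.

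The 11348 of 23610 genes whose mean reached 1 FPKM were fitted in limma 3.58.1 (R 4.3.3) on log2(FPKM + 1), a scale that understates changes of low genes, with group as the only term, all 9 libraries and an intensity trend; tests were two-sided, with Benjamini-Hochberg adjustment over all tested genes, and an adjusted p under 0.05 was a call. The fit was tested on simulated data. EGR1, NAB1 and NAB2 passed the filter; EGR2 and EGR3 did not, and their differences are plain. The members and lists were chosen with earlier results of these data known.

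Named genes are the members, from each list up to 4 called genes with the smallest adjusted p (or 2 where none was called), the 5 most like EGR1 and NAB2, neighbours and the targeted genes; some of these are not reported here. Promoter windows came from RefSeq (GRCh38.p14) and carry no coordinate of the hg19 data. Alternatives were other pseudocounts, filters and normalizations, no trend, library weights, 2 groups only, a replicate block, and each library left out with the set of tested genes held fixed.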

Additional observations from a re-analysis of the deposited data

How the results depend on the processing

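The direction of EGR1 and of NAB2 against Luciferase sgRNA held under all 19 alternatives. With a library left out, EGR1 lay between -1.61 and -1.42 with HAND1 sgRNA and between 1.5 and 1.6 with ETV1 sgRNA, and NAB2 between 0.56 and 0.68 and between 0.58 and 0.70. With a pseudocount of 5, NAB2 was at 0.47 with HAND1 sgRNA and 0.49 with ETV1 sgRNA, EGR1 was at -2.86 between HAND1 and ETV1 sgRNA, and EGR2 was at -0.039 with HAND1 sgRNA. With a pseudocount of 0.1, EGR2 was at -0.52 with HAND1 sgRNA against Luciferase sgRNA and at -0.35 against ETV1 sgRNA, and EGR3 at -0.67 and -0.83; a larger pseudocount shrinks differences of low genes by construction. The members called with ETV1 sgRNA numbered 1 to 2 with a library left out. The list genes called with ETV1 sgRNA were 2 with only the 2 groups compared and 3 to 6 with a library left out. All genes called with ETV1 sgRNA numbered 14 with only the 2 groups compared, 45 with library weights and 11 to 26 with a library left out. With HAND1 sgRNA they numbered 1312 with library weights and 433 to 730 with a library left out, and 271 to 583 between HAND1 and ETV1 sgRNA. In the main fit the numbers were 749 with HAND1 sgRNA, 23 with ETV1 sgRNA and 460 between HAND1 and ETV1 sgRNA. What moved the counts was not tested. With the replicate number as a block, 632, 16 and 364 genes were called with HAND1 sgRNA, with ETV1 sgRNA and between them, and the members called were the same in number (2, 2 and 1). Same-numbered libraries correlated between -0.146 and 0.138 in their deviations, and 7 of 18 best partners had the same number, so the numbers do not show a pairing. Absolute depth is unknown, which limits what EGR2, EGR3 and EGR4 can show.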
